A study of Mus musculus with 12 samples.

Results

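Heat shock proteins and the DNAJ co-chaperones that work with them were followed in brain tissue from mice with intracerebral haemorrhage (ICH) and from sham-operated mice. The genes were chosen by symbol from the deposited table: the Hspa, Hspb, Hsp90 and Hsph families, the chaperonin pair Hspd1 and Hspe1, the Hsf transcription factors, and every Dnaja, Dnajb and Dnajc gene. This gave 75 of 21956 genes, of which 45 are DNAJ co-chaperones and 30 are heat shock proteins or factors. The rule itself uses symbols and no measured value, although it was set with earlier results of these data known. In the comparison of ICH with sham in Fabp4fl_fl mice, 66 of the 75 had enough counts to be tested. Of the 75 genes, 9 could be tested in no comparison (Hspb2, Hspb7, Hspb9, Hsf3, Dnajb7, Dnajb8, Dnajc5b, Dnajc5g and Dnajc22). Dnajb7, Dnajb8, Dnajc5b and Dnajc5g had at most 3 counts in every library.

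RNA from 12 mice was sequenced, 3 in each of 4 groups. The Sham-Fabp4fl_fl and ICH-Fabp4fl_fl mice carried loxP-flanked Fabp4 alleles. The Sham-Fabp4CKO and ICH-Fabp4CKO mice carried the same floxed alleles together with Tmem119-creERT2, and daily tamoxifen before surgery deleted Fabp4 in cells that use the Tmem119 promoter, which in the brain are microglia. Haemorrhage was produced by injecting collagenase into the right striatum, and sham mice had the same operation without collagenase. Tissue within 1 to 2 mm of the haematoma was taken 48 h after ICH in 1-mm slices. The time of sham tissue, the age and sex of these mice, and whether Fabp4fl_fl mice had tamoxifen or carried Cre are not given in the sources used here. Mice that showed no neurological deficit after ICH were left out by the study.

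Heat shock proteins are molecular chaperones. HSP70 proteins (the Hspa family) bind unfolded stretches of protein and release them as ATP is hydrolysed and exchanged. DNAJ proteins deliver clients and switch on the ATPase of HSP70, and HSP110 proteins exchange the nucleotide so that the client is let go. HSP90 matures kinases and steroid receptors, and small heat shock proteins (the Hspb family) hold unfolded proteins without using ATP. In the cytosol the genes are switched on by heat shock factor HSF1, whereas chaperones of the endoplasmic reticulum (ER) answer to the unfolded protein response. In brain, Hspa8, Hsp90aa1, Hsp90ab1 and several DNAJ proteins such as Dnajc5 and Dnajc6 are abundant in neurons, where the last pair serve synaptic vesicles.

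The libraries held 15650822 to 22406226 counts. Fabp4 itself had 46, 63 and 24 counts in the ICH-Fabp4fl_fl mice and 5, 3 and 10 counts in the ICH-Fabp4CKO mice, against 0 to 2 in the sham mice. Several libraries stood apart from their group. Mitochondrial genes took 16.3% of counts in ICH-Fabp4fl_fl mouse 1 and 7.90% to 11.9% in the others. ICH-Fabp4CKO mouse 1 had 1 count on Y-linked genes and the others had 1302 to 2251. ICH-Fabp4CKO mouse 2 lay farther from mice 1 and 3 of its group (chi-square per degree of freedom 149.8 and 312) than those lay from each other (49.8). Sham-Fabp4fl_fl mouse 3 lay at 60.9 and 46.7 from mice 1 and 2, which lay at 10.5 from each other. Its choroid plexus markers summed to 3248 CPM (counts scaled to a library of 1000000), against 854 and 1642 in mice 1 and 2 of its group and at most 55.0 in every other group. Summed neuron markers were 4323 to 5194 CPM in Sham-Fabp4fl_fl mice and 1344, 2120.2 and 3873 CPM in ICH-Fabp4fl_fl mice 1, 2 and 3. Endothelial markers summed to 198 to 204 CPM and to 996, 672 and 458 CPM in the same groups, and mural cell markers to 150.5 to 202 CPM and 902, 738 and 449.9 CPM.

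Across all their members, the chaperones took a smaller share of the messenger RNA around the haematoma. They made up 1.06% to 1.18% of counts in Sham-Fabp4fl_fl mice and 0.747% to 0.832% in ICH-Fabp4fl_fl mice. In Fabp4CKO mice the share was 1.14% to 1.22% after sham surgery and 0.816% to 0.976% after ICH. Per kilobase of exon, the most abundant members in Sham-Fabp4fl_fl mice were Hspa8 at a mean level of 643 CPM per kb (602 to 704), Hsp90ab1 at 548 (505 to 627) and Hsp90aa1 at 201 (183 to 228). The ER chaperones Hsp90b1 at 83.3 CPM per kb and Hspa5 at 80.2 followed, and their ranges over mice (68.5 to 98.7 and 59.6 to 114) overlapped. After ICH in Fabp4fl_fl mice, Hspa8 stood at 402 CPM per kb (386 to 410) and Hsp90ab1 at 410 (384 to 438), with overlapping ranges. Small heat shock proteins moved up in this order of mean levels per kilobase: Hspb8 went from place 35 to place 7, Hspb1 from 38 to 8 and Hspb6 from 56 to 16. After ICH, Hspb8 ranged from 36.1 to 59 CPM per kb and Hspb6 from 22.1 to 24.9. Hspb1 ranged from 18.5 to 89.5 (mean 50.5), so its place differs between mice.

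Between ICH and sham in Fabp4fl_fl mice, 13 of the 66 tested members were higher and 21 were lower by edgeR's quasi-likelihood test at an adjusted p under 0.05. That is 19.7% higher and 31.8% lower, where 26.2% and 19.3% of all 14719 genes tested were called higher and lower. The median log2 difference was -0.15 over the members and 0.02 over all genes. Without regard to the test, all 3 ICH mice lay above all 3 sham mice for 16 members and below them for 32, and such separation was seen for 33.0% and 29.0% of all genes. Hspb1, Hspb6 and Hspb8 were higher, all 3 HSP110 genes were lower, 3 of 4 Dnaja genes were lower, and none of the 3 Hsp90 genes was called. Hspb3 was called higher too, but it passed the count filter only through the ICH mice, where it was higher. Leaving out 1 mouse at a time gave 3 to 15 members higher and 9 to 22 lower. The lowest counts came without Sham-Fabp4fl_fl mouse 2 (3 higher, 11 lower, against 17.6% and 11.4% of all genes) and without ICH-Fabp4fl_fl mouse 2 (5 higher, 9 lower, against 18.2% and 9.83%). The highest came without ICH-Fabp4fl_fl mouse 3 (15 higher, 22 lower, against 4309 and 3856 of 14925 genes). Hspb6, Hspb8 and Hspa12b were called higher and Hsph1, Hspa4l, Hspa2, Dnaja4, Dnajb5, Dnajc6, Dnajc15, Dnajc16 and Hsf4 were called lower whichever mouse was left out. In bulk tissue, fewer cells of a type and less RNA per cell cannot be told apart.

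**Figure D1:**
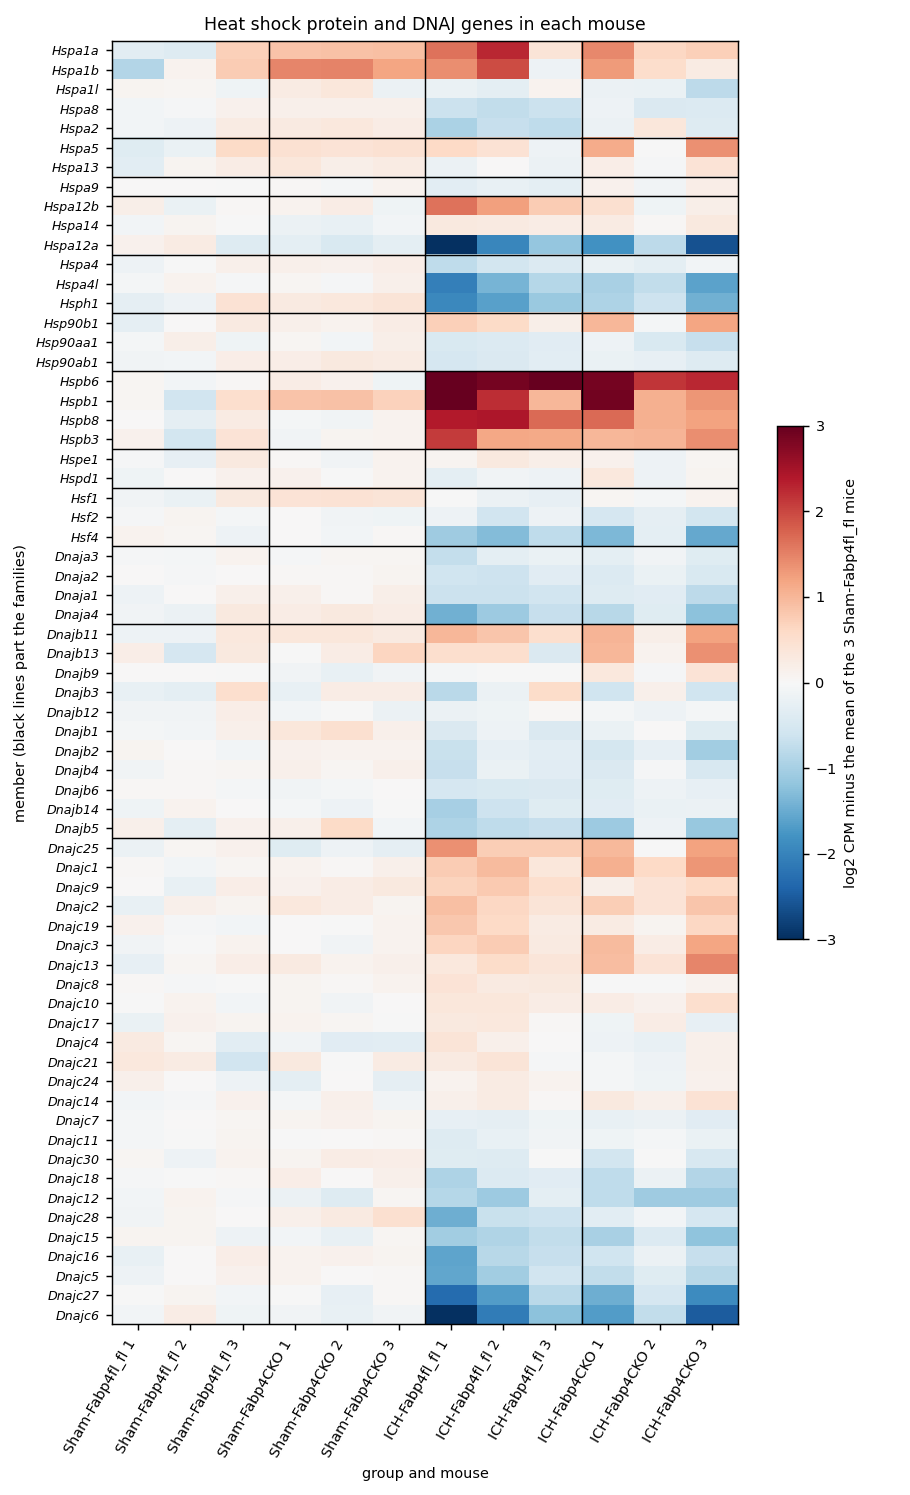
Each row is 1 of the 66 tested members and each column 1 of the 12 libraries, and colour gives log2 CPM minus the mean of the 3 Sham-Fabp4fl_fl mice, clipped at -3 and 3. The small heat shock proteins are raised in all 6 ICH libraries, while Hsph1, Hspa4l, Hspa12a and Dnajc6 are lowered in them.

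Among the small heat shock proteins, Hspb6 (HSP20, ENSMUSG00000036854), best known from muscle, stood at 7.08, 6.41 and 7.04 CPM in the Sham-Fabp4fl_fl mice and at 57.3, 50.9 and 55.3 CPM in the ICH-Fabp4fl_fl mice. The groups were far apart and each was tight. Its log2 difference was 3.01 (SE 0.14, adjusted p = 0.000262 by edgeR), an 8.06-fold rise. Hspb8 (HSP22, ENSMUSG00000041548), which works with the HSP70 co-chaperone Bag3 to send aggregated protein to autophagy, was at 21.5, 18.0 and 25.7 CPM in sham and 112, 115 and 70.3 CPM after ICH. Every ICH mouse lay above every sham mouse, with mouse 3 lowest of the ICH group. The rise was 4.62-fold, a log2 difference of 2.21 (SE 0.24, adjusted p = 0.000664 by edgeR). Hspb1 (HSP25, ENSMUSG00000004951), which caps actin filaments and is induced in stressed astrocytes, was at 9.95, 6.41 and 13.5 CPM in sham and 92.3, 44.8 and 19.1 CPM after ICH. The ICH mice ranged widely, and mouse 3 was the closest to sham. The log2 difference was 2.41 (SE 0.56, adjusted p = 0.0127 by edgeR). Hspb3 rose from 0.110 to 0.315 CPM in sham to 0.585 to 1.25 CPM after ICH (log2 difference 1.84, SE 0.59, adjusted p = 0.0380 by edgeR). However, Hspb3 rests on 2 to 19 counts a library. It passed the count filter only through the ICH mice and was not tested between the sham groups.

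Levels of Hspb1 and Hspb8 were lowest, among the ICH-Fabp4fl_fl mice, in mouse 3. The same mouse had the lowest summed endothelial (458 CPM) and mural (449.9 CPM) markers of its group. It was also lowest for fibroblast markers (184 CPM against 469 and 338 in mice 1 and 2), monocyte and macrophage markers (71.7 against 169 and 179 CPM), oligodendrocyte markers (17981 against 26505 and 23339 CPM) and mitosis genes (188 against 363 and 312 CPM). Its neuron markers (3873 CPM) and astrocyte markers (7256 against 5449 and 6917 CPM) were the highest of the group. Against sham, all 6 endothelial, 6 of 7 mural, 5 of 6 fibroblast, all 6 monocyte and macrophage, 3 of 6 oligodendrocyte and 3 of 6 astrocyte markers were called higher by edgeR, and 5 of 8 neuron markers lower. In Fabp4CKO mice, oligodendrocyte markers summed to 9931 to 10662 CPM after sham surgery and 7089 to 11123 CPM after ICH, and astrocyte markers to 2850.2 to 2917 CPM and 5418 to 7341 CPM. The part of these cell types in the changes of the chaperones was not tested.

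The stretch before the Hspb1 start, from RefSeq (GRCm38.p6, chr5:135887669-135887918, plus strand), is shown because this small heat shock gene is a textbook HSF1 target. Capitals mark 2 places where a 2-unit heat shock element occurs. It was searched in both arrangements of its units, GAANNTTC and TTCNNGAA, each of which reads the same on the other strand. The matches lie between 117 and 90 bases before the start.
Hspb1: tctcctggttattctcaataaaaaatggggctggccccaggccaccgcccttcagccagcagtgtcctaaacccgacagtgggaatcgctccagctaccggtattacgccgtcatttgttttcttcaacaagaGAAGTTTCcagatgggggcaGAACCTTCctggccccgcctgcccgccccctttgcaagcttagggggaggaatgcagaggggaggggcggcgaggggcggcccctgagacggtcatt
Promoter windows of 300 bases, 250 before and 50 after the start, were found for 59 of the 75 members. Where a gene has several starts, it has several windows. Either 2-unit arrangement was present in a window of 16 of these 59 members (27.1%), of 17% of all genes with a window, and in 15.1% of all 32851 windows. Among the holders were Hspb1, Hspb3, Hspb6 and Hspb8, which were higher after ICH, but also Dnaja1, Dnaja4, Hsph1 and Dnajc27, which were lower. The longer 3-unit form, GAANNTTCNNGAA or TTCNNGAANNTTC, contains the short one and was present in 4 members (6.78%), in 0.662% of all genes with a window and in 0.603% of all windows. The 4 were Hsph1, Hspd1, Hspe1 and Dnajb6. A match describes letters only.

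Among the 59 members with a window, those 4 genes hold the longest heat shock element searched. None of the 4 was called higher after ICH in Fabp4fl_fl mice, where 26.2% of all genes were. The 16 members without a window, among them Hspa8, Hsp90aa1 and Hsp90ab1, were not searched. Dnajb6, a suppressor of protein aggregation, fell from 134 to 143 CPM to 97.8 to 103 CPM (log2 difference -0.45, SE 0.13, adjusted p = 0.0236 by edgeR). Capitals mark the element in each site below. The Hsph1 site (chr5:149636280-149636308, minus strand) lies 16 to 28 bases after 1 of 2 starts and begins 37 bases after the other. The Dnajb6 site (chr5:29735844-29735872, plus strand) lies 46 to 34 bases before 1 of 2 starts and begins 127 bases before the other. The Hspe1 site (chr1:55088053-55088082, plus strand) lies 89 to 72 bases before the Hspe1 start. Hspe1 and Hspd1 face away from each other and share that site, which holds 2 overlapping matches. All are RefSeq sequence of GRCm38.p6.
Hsph1: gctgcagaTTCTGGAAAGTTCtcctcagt
Dnajb6: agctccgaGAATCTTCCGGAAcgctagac
Hspe1: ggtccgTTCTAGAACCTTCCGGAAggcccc

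Hsph1 (HSP105, ENSMUSG00000029657), an HSP110 nucleotide exchange factor, had the opposite course to the small heat shock proteins. It was at 300.4, 328 and 491 CPM in Sham-Fabp4fl_fl mice and at 95.5, 119 and 169 CPM in ICH-Fabp4fl_fl mice. The groups did not overlap, and sham mouse 3 was well above the other sham mice. The log2 difference was -1.53 (SE 0.28, adjusted p = 0.00504 by edgeR), a 2.88-fold fall. Hspa4l, the HSP110 protein named APG-1, went from 174, 195 and 177 CPM to 43.5, 69.5 and 100.3 CPM. All ICH mice were below the sham range, by a log2 difference of -1.34 (SE 0.29, adjusted p = 0.00898 by edgeR). Hspa4, the APG-2 exchange factor, fell less, from 224 to 278 CPM in sham to 147 to 189 CPM after ICH (log2 difference -0.55, SE 0.16, adjusted p = 0.0296 by edgeR). ICH-Fabp4fl_fl mouse 3, which had the most neuron and astrocyte marker RNA, was also the highest of its group for all 3 HSP110 genes. The part of neuron or astrocyte number in these levels was not tested.

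**Figure D2:**
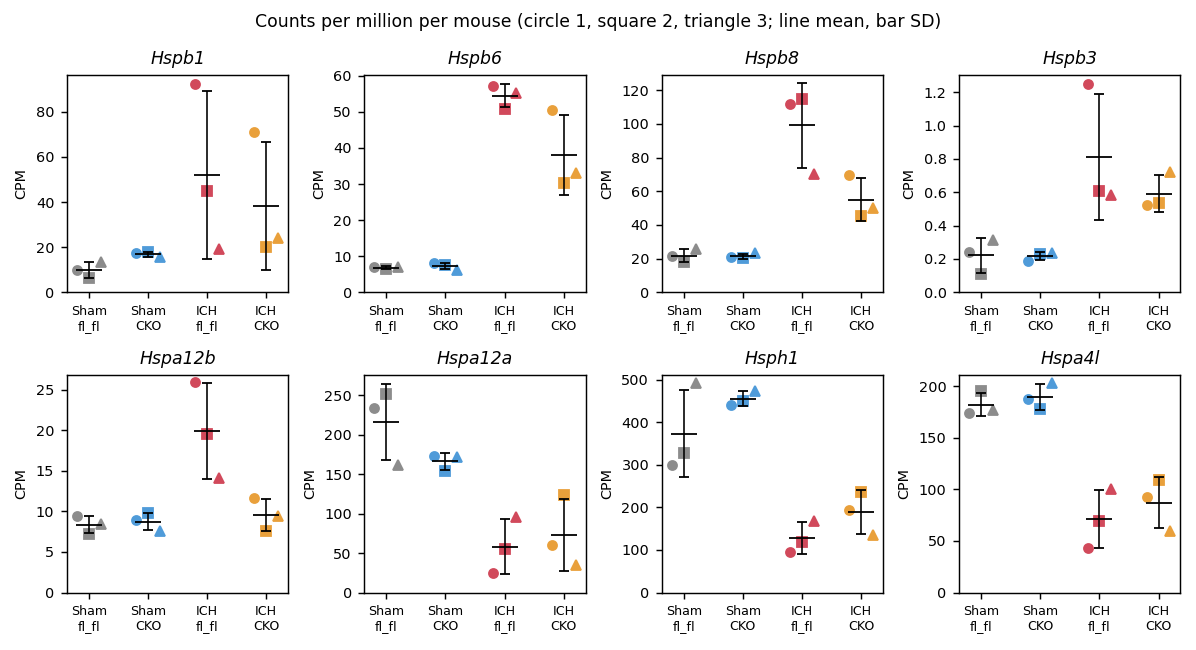
Points give CPM in each mouse for 8 members, the line is the mean of 3 mice and the bar 1 SD, with a separate vertical axis for each gene. Hspb1, Hspb6, Hspb8 and Hspb3 lie higher in both ICH groups than in their sham groups, Hspa12b lies at 14.1 to 25.9 CPM in ICH-Fabp4fl_fl mice and at 7.24 to 11.6 CPM in all other mice, and Hspa12a, Hsph1 and Hspa4l lie lower in both ICH groups.

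The cytosolic HSP70 family did not move as a block. Hspa8 (HSC70, ENSMUSG00000015656), the constitutive form, was at 2588, 2675 and 3029 CPM in Sham-Fabp4fl_fl mice and 1757, 1659 and 1765 CPM after ICH. The groups were apart, and the log2 difference was -0.66 (SE 0.19, adjusted p = 0.0280 by edgeR). Hspa2, an HSP70 best known from spermatocytes, fell from 28.8 to 37.8 CPM to 16.7 to 20.0 CPM (log2 difference -0.79, SE 0.16, adjusted p = 0.00674 by edgeR). The inducible genes Hspa1a and Hspa1b, which make the protein usually called HSP70, behaved otherwise. Hspa1a (ENSMUSG00000091971) was at 7.42, 7.07 and 15.5 CPM in sham and 29.2, 45.3 and 12.3 CPM after ICH. ICH mouse 3 fell inside the sham range, so the groups overlapped even though the gene was called (log2 difference 1.55, SE 0.50, adjusted p = 0.0380 by edgeR). Hspa1b (ENSMUSG00000090877) was at 3.97, 7.84 and 12.6 CPM in sham and 19.3, 29.0 and 6.59 CPM after ICH, and the same mouse was low. It was not called (log2 difference 1.19, SE 0.57, adjusted p = 0.126 by edgeR). Hspa1l was at 5.52 to 6.41 CPM in sham and 4.96 to 6.54 CPM after ICH. Of its exon length, 71.9% is covered by an overlapping gene in GENCODE M21, so its counts are uncertain.

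Counts of Hspa1a and Hspa1b are also uncertain between the pair, because 47.1% of the 100-base windows of Hspa1a transcripts occur unchanged in Hspa1b and 49.9% of those of Hspa1b occur in Hspa1a. Added together, the pair stood at 11.4, 14.9 and 28.1 CPM in Sham-Fabp4fl_fl mice, 48.5, 74.3 and 18.9 CPM in ICH-Fabp4fl_fl mice, 37.4, 38.0 and 34.3 CPM in Sham-Fabp4CKO mice, and 43.3, 25.0 and 24.0 CPM in ICH-Fabp4CKO mice. The ICH-Fabp4fl_fl mice spread more than any other group. For the sum, the ICH against sham difference in Fabp4fl_fl mice was 1.40 on the log2 scale (SE 0.51, adjusted p = 0.0586 by edgeR), so that the call on Hspa1a did not hold for the pair counted as 1 gene. Of the 250 bases before the start, 247 are the same in both genes. These stretches are printed to show the single 2-unit element, in capitals, at 104 to 97 bases before each start. Hspa1a lies at chr17:34972157-34972406 and Hspa1b at chr17:34959239-34959488, both on the minus strand of GRCm38.p6 in RefSeq.
Hspa1a: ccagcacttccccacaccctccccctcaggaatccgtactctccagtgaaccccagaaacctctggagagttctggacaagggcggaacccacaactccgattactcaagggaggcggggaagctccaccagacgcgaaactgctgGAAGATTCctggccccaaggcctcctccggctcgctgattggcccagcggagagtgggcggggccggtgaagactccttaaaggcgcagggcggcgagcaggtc
Hspa1b: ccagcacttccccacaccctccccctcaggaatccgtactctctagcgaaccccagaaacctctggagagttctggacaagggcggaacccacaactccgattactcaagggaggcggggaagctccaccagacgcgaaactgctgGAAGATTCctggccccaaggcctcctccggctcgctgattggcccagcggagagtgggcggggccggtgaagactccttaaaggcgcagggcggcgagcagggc

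The divergent HSP70 genes Hspa12a and Hspa12b, distant relatives of the classical HSP70 genes, went in opposite directions. Hspa12a, known chiefly from brain, was at 234, 252 and 162 CPM in Sham-Fabp4fl_fl mice and 24.8, 54.6 and 95.1 CPM after ICH. The groups were apart, and the ICH mice stood in the same order as for summed neuron markers (1344, 2120.2 and 3873 CPM). Astrocyte markers had that order too (5449, 6917 and 7256 CPM). The log2 difference of Hspa12a was -1.88 (SE 0.45, adjusted p = 0.0140 by edgeR), a 3.67-fold fall. Hspa12b (ENSMUSG00000074793), a gene of endothelial cells, was at 9.38, 7.24 and 8.46 CPM in sham and 25.9, 19.6 and 14.1 CPM after ICH. The ICH mice stood in the order of their endothelial markers (996, 672 and 458 CPM), and the log2 difference was 1.26 (SE 0.25, adjusted p = 0.00706 by edgeR). Summed mural, fibroblast, oligodendrocyte, neutrophil, erythroid and mitosis markers had the same order in these mice. With only 3 mice a group, the part of any of these cell types was not tested. Hspa14, a ribosome-associated HSP70, was at 22.4 to 25.1 CPM and 27.8 to 28.8 CPM (log2 difference 0.28, SE 0.12, adjusted p = 0.0987 by edgeR).

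No cytosolic HSP90 gene was called. Hsp90aa1, the inducible form, was at 758, 896 and 718 CPM in sham and 573, 595 and 618 CPM after ICH. Hsp90ab1, the constitutive form, was at 1514, 1538 and 1881 CPM and 1153, 1220.1 and 1314 CPM. In both genes every ICH mouse was below every sham mouse, with log2 differences of -0.39 (SE 0.17, adjusted p = 0.0997) and -0.40 (SE 0.19, adjusted p = 0.119) by edgeR. DESeq2 called both lower (adjusted p = 0.0132 and 0.0126), as it did 23.2% of all genes. Among the factors that switch these genes on, Hsf4, best known from the lens, fell from at least 8.36 CPM in every sham mouse to 3.69 to 5.47 CPM after ICH (log2 difference -1.03, SE 0.22, adjusted p = 0.00975 by edgeR). Hsf1 was at 20.8 to 29.3 CPM and 19.9 to 23.5 CPM (adjusted p = 0.507), and Hsf2 at 20.8 to 22.6 CPM and 14.3 to 19.3 CPM (adjusted p = 0.218, both by edgeR). HSF1 works through its protein state, which RNA levels do not measure.

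In the ER, Hsp90b1 (GRP94), the HSP90 of the ER, was at 276, 333 and 398 CPM in sham and 543, 491 and 373 CPM after ICH, and was not called (log2 difference 0.50, SE 0.22, adjusted p = 0.0927 by edgeR). Hspa5 (BiP, ENSMUSG00000026864), the HSP70 of the ER, was at 252, 281 and 484 CPM and 492, 437 and 293 CPM. The groups overlapped for both genes, because sham mouse 3 was high and ICH mouse 3 was low (Hspa5 log2 difference 0.29, SE 0.31, adjusted p = 0.466 by edgeR). Hspa13, a microsome-associated HSP70, was at 42.0 to 60.8 CPM and 46.2 to 52.2 CPM (adjusted p = 0.607 by edgeR). Of the DNAJ genes in the list of ER chaperones given below, Dnajb11, Dnajc3 and Dnajc1 were called higher. That list does not hold every DNAJ gene of the ER membrane. Dnajb14, Dnajc16 and Dnajc18, which are outside it, were called lower. Dnajb11, a BiP co-chaperone, went from 46.8, 46.5 and 64.4 CPM to 104, 92.6 and 73.2 CPM (log2 difference 0.80, SE 0.20, adjusted p = 0.0155 by edgeR). Dnajc3 (p58IPK), which also restrains the kinase PERK, went from 57.9, 61.7 and 66.7 CPM to 97.2, 105 and 74.9 CPM (log2 difference 0.59, SE 0.16, adjusted p = 0.0223 by edgeR). Dnajc1, an ER membrane co-chaperone, went from 15.4 to 17.0 CPM to 20.6 to 31.8 CPM (log2 difference 0.73, SE 0.18, adjusted p = 0.0169 by edgeR). ICH mouse 3 was the lowest of its group for all 3.

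Hspa5, Hsp90b1 and Dnajc3 were the only members whose promoter window held the ER stress response element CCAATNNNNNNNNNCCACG or its other-strand form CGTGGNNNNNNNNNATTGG. That is 5.08% of the 59 members with a window, against 0.137% of all genes with a window and 0.119% of all windows. The sequences show how each carries it, in capitals: 1 match 65 to 47 bases before the start in Hspa5 (chr2:34772020-34772048, plus strand), 2 matches of opposite orientation between 212 and 89 bases before it in Hsp90b1 (chr10:86705510-86705694, minus strand) and 1 match 105 to 87 bases before it in Dnajc3 (chr14:118937682-118937931, plus strand), all from RefSeq GRCm38.p6.
Hspa5: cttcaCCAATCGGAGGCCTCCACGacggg
Hsp90b1: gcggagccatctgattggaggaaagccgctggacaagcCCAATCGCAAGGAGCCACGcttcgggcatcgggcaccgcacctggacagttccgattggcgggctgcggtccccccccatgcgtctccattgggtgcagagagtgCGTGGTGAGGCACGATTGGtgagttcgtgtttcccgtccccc
Dnajc3: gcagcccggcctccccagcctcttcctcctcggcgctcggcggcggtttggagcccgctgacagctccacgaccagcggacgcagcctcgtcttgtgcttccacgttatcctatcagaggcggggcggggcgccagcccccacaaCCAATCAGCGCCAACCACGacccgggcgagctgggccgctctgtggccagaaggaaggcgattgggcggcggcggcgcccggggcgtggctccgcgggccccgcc
Of these 3 genes, only Dnajc3 was called higher after ICH in either genotype. Of all genes, 26.2% were called higher in Fabp4fl_fl mice and 24.5% in Fabp4CKO mice.

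Of the classical mitochondrial chaperones Hspa9, Hspd1 and Hspe1, none was called by edgeR. Hspa9 (mortalin), the mitochondrial HSP70, was at 250.3 to 258 CPM in sham and 203 to 219 CPM after ICH, which did not overlap (log2 difference -0.26, SE 0.14, adjusted p = 0.151 by edgeR). DESeq2 called it lower (adjusted p = 0.0315). Hspd1 (HSP60), the chaperonin barrel, was at 154 to 182 CPM and 138 to 156 CPM, and its lid Hspe1 (HSP10) at 31.5 to 45.2 CPM and 39.5 to 45.3 CPM. Dnajc19, a part of the mitochondrial import motor, rose from 11.8 to 13.6 CPM to 14.8 to 22.1 CPM (log2 difference 0.59, SE 0.19, adjusted p = 0.0399 by edgeR). Dnajc15, its close relative in the inner membrane, had the opposite direction, falling from 66.2, 65.8 and 56.0 CPM to 30.4, 33.2 and 37.5 CPM (log2 difference -0.88, SE 0.14, adjusted p = 0.00315 by edgeR).

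Among the DNAJ genes after ICH in Fabp4fl_fl mice, 0 were higher and 3 lower of 4 Dnaja genes tested, 1 higher and 3 lower of 11 Dnajb genes, and 6 higher and 8 lower of 25 Dnajc genes. Over all genes, 26.2% were higher and 19.3% lower. The largest fall was that of Dnajc6 (auxilin), which strips clathrin from synaptic vesicles, from 297, 364 and 286 CPM to 38.1, 73.6 and 133 CPM. The ICH mice lay far below sham, and in the order of both their neuron and their astrocyte markers (log2 difference -1.93, SE 0.42, adjusted p = 0.00939 by edgeR, 3.82-fold). Dnajc5 (cysteine string protein), which keeps synaptic SNARE proteins folded, went from 376, 420.4 and 459.7 CPM to 141, 202 and 282 CPM (log2 difference -0.99, SE 0.26, adjusted p = 0.0189 by edgeR). Dnajc27, a small GTPase with a J domain, went from 159.8, 171 and 151 CPM to 32.1, 50.0 and 91.1 CPM (log2 difference -1.46, SE 0.35, adjusted p = 0.0136 by edgeR). Each of these 3 was highest, among the ICH mice, in mouse 3. The other falls named by the smallest p were those of Dnaja4 (log2 difference -1.04), Dnajc16 (-0.98), Dnajb5 (-0.79) and Dnaja1 (-0.61, a cytosolic partner of Hspa8). Of the exon length of Dnaja4, 44.1% overlaps another gene, so that its reads may include that gene's. Not called were 1 Dnaja, 7 Dnajb and 11 Dnajc genes, with log2 differences between -0.38 and 0.42. The other DNAJ genes called higher were Dnajc25 (log2 difference 1.01), Dnajc9 (0.67), a histone co-chaperone, and Dnajc2 (0.66), a ribosome-associated partner of Hspa14.

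**Figure D3:**
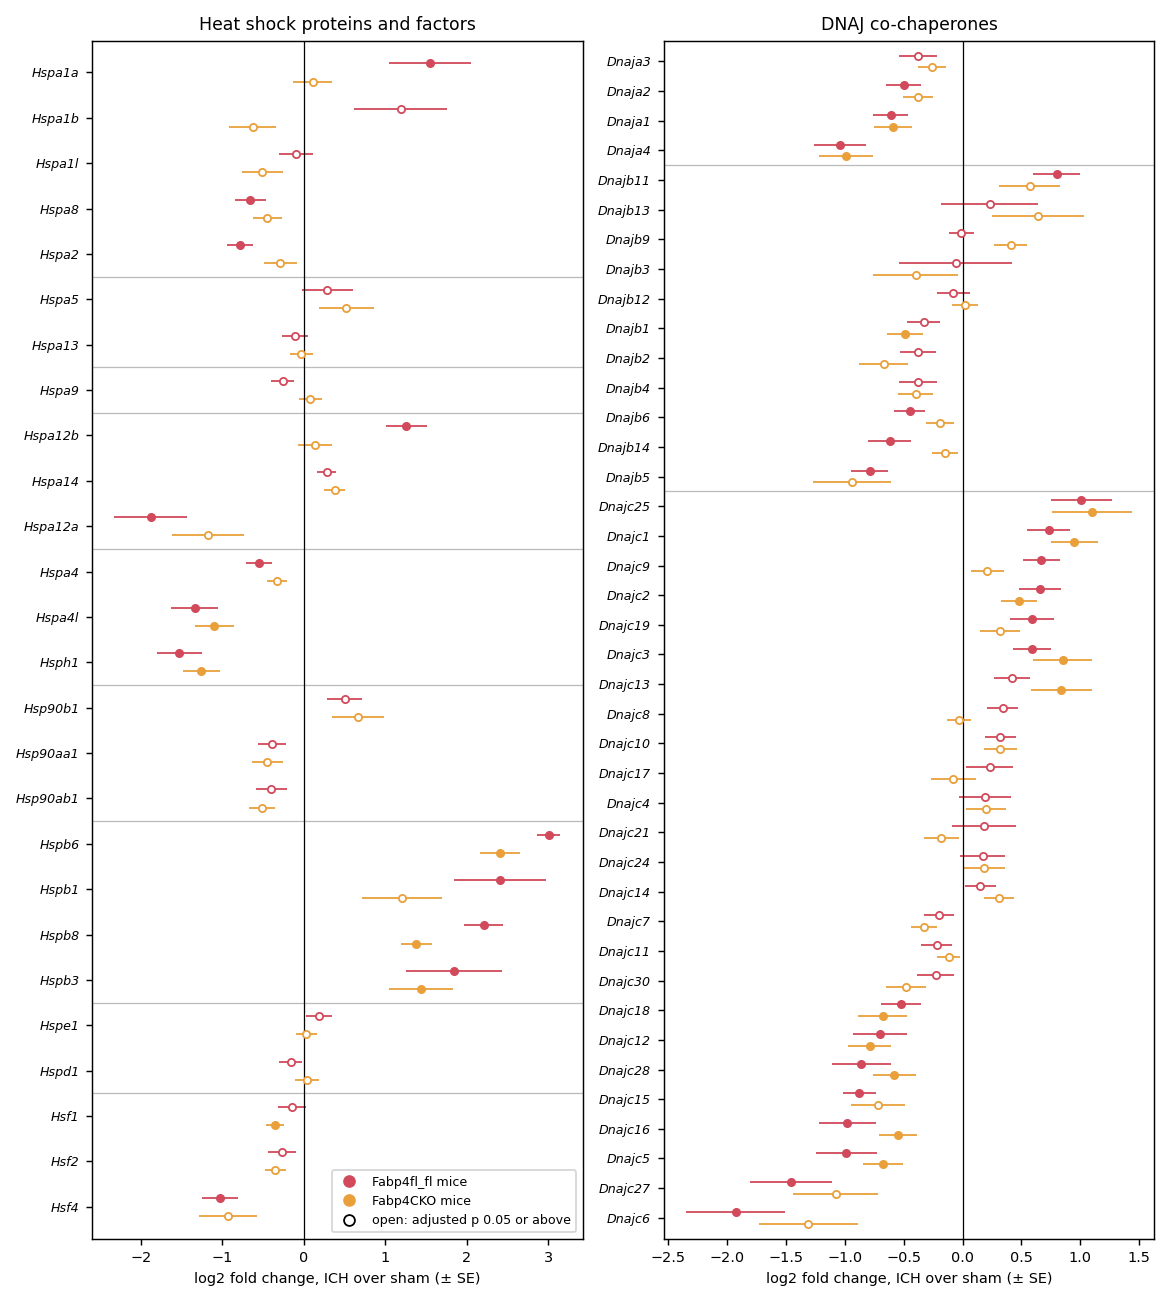
Log2 difference of ICH from sham with its standard error for each tested member, in Fabp4fl_fl and in Fabp4CKO mice, where open symbols mark an adjusted p of at least 0.05 by edgeR. Hspb6 is the highest in both genotypes at 3.01 and 2.41, and Dnajc6 (-1.93 and -1.31), Hspa12a (-1.88 and -1.18) and Hsph1 (-1.53 and -1.26) are among the lowest in both. Dnajc6 and Hspa12a were not called in Fabp4CKO mice, whereas Hsph1 was called in both genotypes.

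Wider lists of chaperone genes, which include some members, put these results in their pathways. Of all genes, 26.2% were called higher and 19.3% lower, and the lists are to be read against those shares. Of 21 genes listed as targets of HSF1, 5 were higher and 7 lower after ICH in Fabp4fl_fl mice (median log2 difference -0.39, against 0.02 over all genes). Beside the members, the ER-resident collagen chaperone Serpinh1 (2.11), the Hspb8 partner Bag3 (1.49) and the small heat shock protein Cryab (0.93) were higher. The HSP70-HSP90 adaptor Stip1 (-0.86) and the immunophilin Fkbp4 (-0.63) were lower. In the ER list, 9 of 21 tested genes were higher and 1 lower (median 0.59). They included Sdf2l1 (1.95), a DNAJB11 partner, Creld2 (1.24), the disulphide isomerase Pdia4 (1.08) and the secreted factor Manf (0.92), while the ER degradation gene Herpud1 (-0.40) was lower. HSP90 co-chaperones had 1 higher and 5 lower of 20 (median -0.17), and HSP70 exchange factors and BAG proteins 2 higher and 4 lower of 14 (median -0.31). Mitochondrial chaperones had 2 higher and 3 lower of 16 (median -0.19), among them the iron-sulphur cluster co-chaperone Hscb (1.42). The chaperonin TRiC and prefoldin had 1 higher of 14 (median -0.03).

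In Fabp4CKO mice, whose libraries are separate from those of the Fabp4fl_fl comparison, 8 members were higher and 11 lower after ICH, where 24.5% and 11.1% of all genes were called higher and lower. The median log2 difference was -0.19 over members and 0.01 over all genes. Hspb6 went from 7.99, 7.44 and 6.23 CPM in Sham-Fabp4CKO mice to 50.6, 30.4 and 33.1 CPM in ICH-Fabp4CKO mice (log2 difference 2.41, SE 0.24, adjusted p = 0.00478 by edgeR). Hspb8 went from 20.7, 20.1 and 23.1 CPM to 69.5, 45.2 and 50.1 CPM (log2 difference 1.38, SE 0.19, adjusted p = 0.00721 by edgeR). Both genes were well clear of sham in every mouse. Hspb1 was at 17.2, 17.7 and 15.5 CPM in sham and 71.2, 19.9 and 23.9 CPM after ICH, where mouse 1 set the mean and the gene was not called (log2 difference 1.21, SE 0.49, adjusted p = 0.0935 by edgeR). Hsph1 fell from 441, 450.3 and 474 CPM to 193, 237 and 134 CPM (log2 difference -1.26, SE 0.23, adjusted p = 0.0124 by edgeR). Hspa4l fell from 188, 178 and 203 CPM to 92.8, 109 and 59.8 CPM (log2 difference -1.10, SE 0.24, adjusted p = 0.0194 by edgeR). The ER partner Dnajc3 rose from 57.3 to 66.8 CPM to 72.0 to 141 CPM (log2 difference 0.85, SE 0.25, adjusted p = 0.0423 by edgeR).

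Called higher in both genotypes were 7 members, which is 53.8% of the 13 in Fabp4fl_fl mice and 87.5% of the 8 in Fabp4CKO mice: Hspb3, Hspb6, Hspb8, Dnajc1, Dnajc2, Dnajc3 and Dnajc25. Of these, Hspb3 passed the count filter only through the ICH mice in each genotype. Over all genes, calls shared between genotypes made up 75.8% of those higher in Fabp4fl_fl mice and 81.2% of those higher in Fabp4CKO mice. Called lower in both were 9, or 42.9% of 21 and 81.8% of 11: Hsph1, Hspa4l, Dnaja1, Dnaja4, Dnajc5, Dnajc12, Dnajc16, Dnajc18 and Dnajc28. The same shares over all genes called lower were 37.4% and 64.9%. In Fabp4CKO mice, 24.5% of all genes were called higher and 11.1% lower after ICH. There, 6 of 21 tested genes in the ER list were higher and 0 lower (median log2 difference 0.60). Of the 21 genes listed as targets of HSF1, 2 (Bag3 and Serpinh1) were higher and 10 lower (median -0.49). The counts in Fabp4CKO mice depended on single libraries. Without ICH-Fabp4CKO mouse 2, whose neuron markers summed to 4255 CPM against 2081 and 1454 CPM in mice 1 and 3, there were 18 members higher and 28 lower (34.8% and 32.7% of all genes). Without ICH-Fabp4CKO mouse 1 there were 2 higher and 1 lower (9.63% and 0.993% of all genes), and without mouse 3 there were 3 and 3 (15.8% and 4.68%). Leaving out Sham-Fabp4CKO mouse 1, 2 or 3 gave 2 higher and 0 lower each time, where 5.32%, 5.12% and 4.69% of all genes were higher and 0.341%, 0.500% and 0.335% lower. Hspb6 and Hspb8 were called in all of these.

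Between genotypes after ICH, no member was called by edgeR's adjusted p, and neither was any of the 14600 genes tested. At an unadjusted p under 0.05, 1 member was higher and 2 were lower in ICH-Fabp4CKO mice, where 6.36% and 5.82% of all genes were. The endothelial gene Hspa12b was at 25.9, 19.6 and 14.1 CPM in ICH-Fabp4fl_fl mice and 11.6, 7.62 and 9.38 CPM in ICH-Fabp4CKO mice. The groups did not overlap (log2 difference -1.06, SE 0.29, adjusted p = 0.314 by edgeR). DESeq2 called it lower (adjusted p = 0.0381), as it did 1.84% of all genes. Summed endothelial markers were 458 to 996 CPM and 240.0 to 348 CPM in the same groups, and their part was not tested. Hspb8 was at 70.3 to 115 CPM and 45.2 to 69.5 CPM, without overlap (log2 difference -0.86, SE 0.26, adjusted p = 0.341 by edgeR). Hspa2 was at 16.7 to 20.0 CPM and 24.5 to 40.4 CPM (log2 difference 0.75, SE 0.23, adjusted p = 0.339 by edgeR). Hspb6 was lower in all 3 ICH-Fabp4CKO mice by a log2 difference of -0.53 (SE 0.22, adjusted p = 0.416 by edgeR), and Hspa9 was higher in all 3 by 0.36 (SE 0.17, adjusted p = 0.445 by edgeR).

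The interaction, which asks whether the ICH against sham difference itself differed between genotypes, called no member among 66 by edgeR, and 0.0133% and 0.00663% of 15089 genes as having a larger or smaller difference in Fabp4CKO mice. DESeq2 also called no member, and 0.987% and 0.427% of all genes. At an unadjusted p under 0.05 there were 2 members with a larger log2 difference in Fabp4CKO mice and 7 with a smaller one, against 5.57% and 4.37% of all genes. Hspa12b had the smallest p, with a difference of differences of -1.17 (SE 0.35, adjusted p = 0.329 by edgeR). It was followed by the splicing-linked Dnajc8 (-0.42), Hspb8 (-0.88), Hspb6 (-0.64) and Hspa1b (-1.87), with adjusted p of 0.390, 0.399, 0.444 and 0.424 by edgeR. Hspb1 had a log2 difference of 2.41 in Fabp4fl_fl and 1.21 in Fabp4CKO mice, which did not pass the test of the difference (-1.26, SE 0.82, adjusted p = 0.647 by edgeR). A miss here does not show that the genotypes responded alike.

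Between genotypes in sham mice, none of the 65 tested members was called by edgeR's adjusted p, where 0 of 14395 genes were called higher and 16 (0.111%) lower. At an unadjusted p under 0.05, 6 members were higher in Sham-Fabp4CKO mice and 0 lower, where 4.15% of all genes were higher and 6.07% lower. Hspa1b was at 3.97, 7.84 and 12.6 CPM in Sham-Fabp4fl_fl mice and 20.5, 20.6 and 16.9 CPM in Sham-Fabp4CKO mice. The groups did not overlap, and the log2 difference was 1.25 (SE 0.35, adjusted p = 0.423 by edgeR). DESeq2 called it higher (adjusted p = 0.0351), as it did 0.0784% of all genes. Hspa1a was at 7.42, 7.07 and 15.5 CPM and 16.9, 17.4 and 17.4 CPM (log2 difference 0.79, SE 0.28, adjusted p = 0.480 by edgeR). The same direction without overlap was seen for Hspb1 (6.41 to 13.5 CPM and 15.5 to 17.7 CPM, adjusted p = 0.464), for Dnajb1 (HSP40, the inducible partner of HSP70, 52.2 to 61.8 CPM and 62.2 to 77.1 CPM, adjusted p = 0.477) and for Hsf1 (20.8 to 29.3 CPM and 31.1 to 32.1 CPM, adjusted p = 0.477), all by edgeR. In each of these 5 genes, Sham-Fabp4fl_fl mouse 3 was the highest of its group and the closest to the Sham-Fabp4CKO mice.

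**Figure D4:**
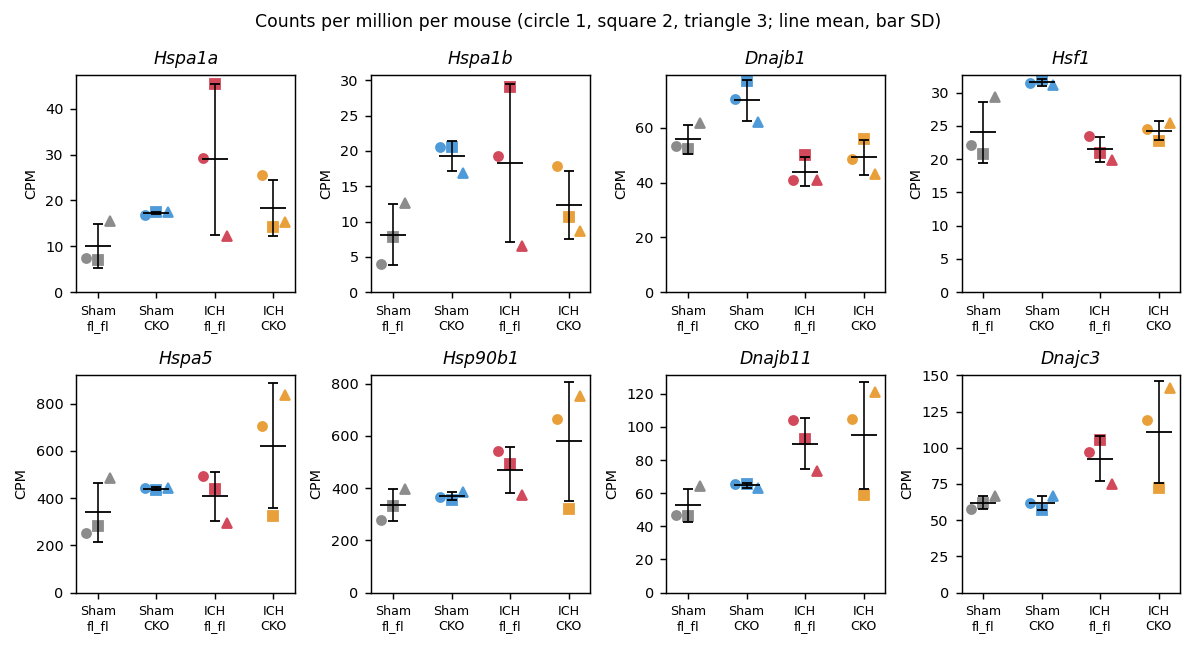
Points give CPM in each mouse of the 4 groups for 8 inducible or ER members, with the mean of 3 mice as a line and 1 SD as a bar. Sham-Fabp4fl_fl mouse 3 lies near the Sham-Fabp4CKO mice for Hspa5 (484 CPM against 433 to 443 CPM) and Hspa1a (15.5 CPM against 16.9 to 17.4 CPM), while mice 1 and 2 of its group lie lower.

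Without Sham-Fabp4fl_fl mouse 3, the library that stood apart and had the most choroid plexus marker RNA, 11 members were higher and 1 was lower in Sham-Fabp4CKO mice, where 10.5% and 9.12% of all genes were called higher and lower. The 11 were Hspa1a (log2 difference 1.24, adjusted p = 0.000625 by edgeR), Hspa1b (1.72, adjusted p = 0.00265), Hspb1 (1.02, adjusted p = 0.00654), Hspa5 (0.71, adjusted p = 0.00114), Hsph1 (0.53, adjusted p = 0.00333), Hsf1, Hspa2, Hsp90ab1, Dnaja4, Dnajb1 and Dnajb11. Hspa12a was lower (-0.56, adjusted p = 0.00308). That fit has 2 mice in 1 arm, and without any other sham mouse no member was called. Mice 1 and 2 still had choroid plexus markers of 854 and 1642 CPM, against 46.8 to 55.0 CPM in Sham-Fabp4CKO mice. Immediate early genes, which neuronal activity and handling raise, summed to 430.3 to 528 CPM in Sham-Fabp4fl_fl mice and to 886, 1179 and 405 CPM in Sham-Fabp4CKO mice. The part of either in the chaperone levels was not tested.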

How the data were processed

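RNA-seq of brain tissue was analysed from 12 mice in 4 groups of 3, each library from 1 mouse, so that p-values measure the spread between mice. The values are estimated counts per gene, made by the authors from poly(A) libraries that do not mark strand and deposited without normalization. The submitters' processing notes name HISAT2, StringTie 1.3.1, Bowtie2 2.2.8 and DESeq2 without roles, and the counting tool and genome build are not given in the sources used here. The counts, of which 7.36% to 8.69% were not whole, were rounded to whole numbers.

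Genes were kept by filterByExpr (minimum count 10, minimum total 15). Each pair of groups was fitted with edgeR 4.0.16 (TMM, quasi-likelihood F-test, R 4.3.3), and the interaction on all 12 libraries. Benjamini-Hochberg adjustment ran over all genes tested, and calls use an adjusted p under 0.05. CPM are TMM-normalised. DESeq2 1.42.0, other scalings and filters, a replicate block and leaving out each mouse were alternatives, and adding Hspa1a and Hspa1b together was chosen after seeing the data. The fits were tested on simulated data.

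The members and lists were chosen with earlier results of these data known. Named were all tested Hsp and Hsf members, up to 8 called DNAJ members per direction in Fabp4fl_fl mice (ranked by p), up to 8 called members per direction elsewhere and, where none was called, the 5 of lowest p. Dnajb6 and members listed beyond these were named after their values were seen. Replicate numbers have no stated meaning, and no comparison had all 3 same-number correlations over 0.1 (0.205, 0.030 and 0.145 in Fabp4fl_fl mice). Promoters are from RefSeq (GRCm38.p6), matched by symbol. Exon lengths and overlaps are from GENCODE M21, matched by gene ID for all 75 members, of which 29 overlap another gene.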

Additional observations from a re-analysis of the deposited data

How the results depend on the processing

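No result reversed direction under any alternative. For ICH against sham in Fabp4fl_fl mice, members called higher ranged from 3 to 15 and lower from 9 to 22 when 1 mouse was left out. The 3 stood beside 17.6% and the 9 beside 9.83% of all genes, the 15 and 22 beside 4309 and 3856 of 14925. Other settings gave 11 (3673 of 17942 genes) to 16 (4370 of 15089) higher and 17 (2488 of 14719) to 25 (23.2%) lower. In Fabp4CKO mice, leaving out 1 mouse gave 2 (4.69% to 9.63% of all genes) to 18 (34.8%) higher. It gave 0 (0.335% to 0.500%) to 28 (32.7%) lower. There, 5 were higher with DESeq2's size factors in edgeR, with total counts, without a filter and with at least 10 counts in every library (23.5%, 22.1%, 19.3% and 22.7% of all genes), and 3 with the replicate block (17.5%). Lower were 18 with DESeq2's size factors in edgeR (14.4% of all genes), 28 with DESeq2 (21.5%), 5 with the replicate block (7.50%), 23 in the fit of all 12 libraries (17.0%) and 7 with a fold of at least 1.5 (9.15%). The cause was not tested. Between genotypes after ICH, 1 member was lower with DESeq2 (1.84% of all genes) and 1 in the fit of all 12 libraries (1.38%), and leaving out 1 mouse gave 0. In sham, 1 was higher with DESeq2 (0.0784%), and leaving out 1 mouse gave 0 to 11 higher and 0 to 1 lower. The 11 and the 1 stood beside 10.5% and 9.12% of all genes. The interaction gave 0 throughout. Replicate numbers carry no stated pairing, and with the replicate block 12 members were higher and 21 lower in Fabp4fl_fl mice (3967 and 3295 of 14719 genes). Over single members and settings, 530 tests kept their side of the threshold, 37 lost a call and 7 gained one, and with mice left out these were 338, 117 and 7. Members with few counts, such as Hspb3, are limited by depth.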

Other observations

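Some members lay outside the tests or the main pattern. Hspb2, a small heat shock protein that shares a promoter region with Cryab, was too low to be tested and stood at 0.191, 0.221 and 0.473 CPM in Sham-Fabp4fl_fl mice and 1.05, 0.605 and 0.213 CPM in ICH-Fabp4fl_fl mice. Of its exon length, 30.2% overlaps Cryab on the opposite strand, and without strand its reads cannot be told from those of Cryab, which was called higher after ICH by edgeR. Hspb7, the cardiovascular small heat shock protein, was at 0.0526 to 0.191 CPM and at 1.58, 0.544 and 0.0531 CPM in the same groups. In both genes, ICH-Fabp4fl_fl mouse 3 lay within or near the sham range, as it did for Hspa1a.

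Dnajc13 (RME-8), a co-chaperone of endosomes, was called higher after ICH in Fabp4CKO mice. It stood at 58.5, 52.0 and 53.8 CPM after sham surgery and 91.1, 64.6 and 134 CPM after ICH (log2 difference 0.84, SE 0.26, adjusted p = 0.0498 by edgeR). In Fabp4fl_fl mice it was at 40.4, 50.6 and 55.0 CPM and 60.6, 70.9 and 61.8 CPM, and was not called (log2 difference 0.42, SE 0.15, adjusted p = 0.0559 by edgeR). Summed microglia markers were 2622, 1312 and 3951 CPM in ICH-Fabp4CKO mice 1, 2 and 3, which is the order of Dnajc13 in those mice, and 1149 to 1249 CPM in ICH-Fabp4fl_fl mice. Summed mural, fibroblast, monocyte and macrophage, neutrophil and mitosis markers had that same order in the ICH-Fabp4CKO mice. The part of these cell types in the level of Dnajc13 was not tested.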
